A study of Mus musculus with 2 samples.

Results

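Auts2, Camta1, Zfhx3, Gse1 and Asic2 are 5 of the 21884 protein-coding genes with a unique symbol in the gene models used here, and they were chosen by the number of open chromatin sites away from any transcript start that each held in both libraries. So the counts and everything computed from them are given below as a description, with no test. Each locus was the gene body plus 20 kb on either side. A peak was called distal when it lay over 1 kb (1000 bp) from every annotated transcript start of any gene, and a promoter was called open when a peak lay within 500 bp of one of its starts.

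The 2 libraries came from hippocampus, labelled as layer of hippocampus tissue, of B6CASTF1/J females aged 14 days. These mice are the F1 offspring of a cross between C57BL/6J and CAST/EiJ, inbred mouse strains. The libraries form 1 group, replicates 1 and 2, with no second condition, and each label names 3 females. Both carry the same donor identifier and separate biosample identifiers, so the spread between them may be technical. Open chromatin was mapped by DNase-seq, in which the nuclease DNase I cuts exposed DNA and the cut sites are sequenced, and tissue made of many cell types was assayed in bulk. A weak site may therefore be open in few cells or rarely open in many cells, and these cannot be told apart here.

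A transcription start that is open to DNase I is usually depleted of nucleosomes, and open sites far from starts include enhancers, insulators and silencers, which are bound by transcription factors. Short stretches inside an open site that are protected from cutting, called footprints, mark bases that a bound protein may cover. Very long neuronal genes often carry several alternative promoters and many distal elements in their introns. Auts2 encodes a nuclear protein of neurodevelopment that joins a variant form of the Polycomb repressive complex PRC1. Camta1 encodes a calmodulin-binding transcription activator, and Zfhx3 a very large transcription factor with zinc fingers and homeodomains. Gse1 encodes a coiled-coil protein found with the histone demethylase LSD1 and its CoREST and HDAC partners. Asic2 encodes a subunit of acid-sensing sodium channels of the neuronal membrane. The working description of the group as long regulator genes crowded with sites therefore holds only in part. Asic2 is a channel and not a regulator, and the density of sites at Zfhx3 was below the median of long genes in replicate 2.

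The strongest distal site found in both libraries is printed here for Auts2, Camta1 and Asic2, because these sites show what the peaks look like at the level of single bases. Sites were ranked by the lower of their 2 signal percentiles, 1 per library, so a site can be first in this order and not in each library. Capitals mark bases that lie inside a footprint in both libraries, and all other bases are in lower case. The sequences are those of the C57BL/6J reference genome (mm10), plus strand, 5′ to 3′. The animals also carry a CAST/EiJ copy, which can differ from the letters shown. The sites lie at chr5:131428121-131428300 for Auts2, chr4:151141621-151141840 for Camta1 and chr11:81588741-81588940 for Asic2.
Auts2: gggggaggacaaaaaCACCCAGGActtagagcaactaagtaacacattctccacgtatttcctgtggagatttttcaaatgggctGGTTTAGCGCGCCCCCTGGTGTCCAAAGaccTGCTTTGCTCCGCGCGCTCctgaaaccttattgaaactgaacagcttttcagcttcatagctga
Camta1: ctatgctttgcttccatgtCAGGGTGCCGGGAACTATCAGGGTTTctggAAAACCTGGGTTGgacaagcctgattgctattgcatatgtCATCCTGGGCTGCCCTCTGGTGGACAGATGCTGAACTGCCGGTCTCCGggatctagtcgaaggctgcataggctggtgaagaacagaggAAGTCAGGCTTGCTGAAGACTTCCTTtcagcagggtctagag
Asic2: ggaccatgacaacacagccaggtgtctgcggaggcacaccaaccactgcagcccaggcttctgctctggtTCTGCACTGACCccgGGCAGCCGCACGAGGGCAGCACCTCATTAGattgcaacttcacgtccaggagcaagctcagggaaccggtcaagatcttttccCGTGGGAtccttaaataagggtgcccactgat

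The site at Camta1 stood far above the strongest shared sites of the other 4 genes. Its signal, the authors' value per peak in units whose scaling is not stated, was 17.9 in replicate 1 and 7.33 in replicate 2, which is the 99.5 percentile of all peaks in each library. It lies in an intron 720 kb from the annotated 5′ end of Camta1 and 2037 bp from the nearest start. Bases 101 to 112 of the printed sequence read GCCCTCTGGTGG, a match to the word searched for the insulator factor CTCF (CCNNNAGNNGGC, here on the minus strand), and all 12 bases were inside footprints of both libraries. In each library 3 footprints lay in this peak.

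At Auts2 the shared site that ranked first lay outside the gene, in the flank past its 3′ end, 1115 kb from the 5′ end, with signals of 5.28 and 2.01 in replicates 1 and 2. In replicate 2 other shared sites of the gene were stronger, up to 3.35. Bases 96 to 103 read GCCCCCTG, the reverse complement of CAGGGGGC, a core of the CTCF site that was added to the search after this sequence had been seen. All 8 bases were inside footprints in both libraries. The strongest shared site of Zfhx3 is intronic, 969 kb from the 5′ end, with signals of 5.96 and 2.18. That of Gse1, also intronic and 154 kb from the 5′ end, had signals of 7.87 and 3.48. The site of Asic2, 380 kb from the 5′ end in an intron, had signals of 3.70 and 1.63 and held 0 matches to the words searched. It lies 1380 bp from the nearest annotated start and also within the gene model Gm11418. In replicate 2 the site at 355 kb was stronger, at 3.96. Word matches are described at the printed sites alone. A match of letters describes the sequence and is no evidence that the factor was bound.

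Among the loci, Auts2 (chr5:131437333-132543344, minus strand) was the longest gene at 1106 kb, and Gse1 (chr8:120228456-120581390, plus strand) the shortest at 353 kb. Asic2 (chr11:80880169-81968457, minus strand) spans 1088 kb, Zfhx3 (chr8:107942644-108961630, plus strand) 1019 kb and Camta1 (chr4:150917322-151861876, minus strand) 945 kb. Camta1 shares its locus with 6 other protein-coding genes, Park7, Tnfrsf9, Uts2, Per3, Vamp3 and Gm13090, of which all but Park7 lie within the body of Camta1. Gse1 shares its own with Gins2 and with the model Gm20388, which spans the whole gene, and Asic2 with Spaca3 and 5530401A14Rik. The loci of Auts2 and Zfhx3 hold 0 other protein-coding genes. A distal peak in a locus was counted for the member whichever gene it may act on.

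The 5 loci together held 338 distal peaks in replicate 1 and 424 in replicate 2, or 0.809 ± 0.129 per 10 kb (SD, n = 2). Auts2 held 74 and 103, Asic2 69 and 102, and Camta1 63 and 99 in replicates 1 and 2. These 3 genes had more distal peaks in replicate 2. Zfhx3 was nearly level, with 59 and 61, and Gse1 had fewer in replicate 2, 73 and 59. Most lay inside the gene bodies: 69 and 101 at Auts2, 62 and 96 at Camta1, 59 and 59 at Zfhx3, 66 and 52 at Gse1, and 63 and 97 at Asic2. Few overlapped an exon of any gene, 6.21% in replicate 1 and 3.07% in replicate 2, against 10% and 6.31% of all distal peaks.

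Per unit of length Gse1 stood apart from the other members. It had 1.86 and 1.50 distal peaks per 10 kb in replicates 1 and 2. The next density in each library was 0.646 at Auts2 in replicate 1 and 1.01 at Camta1 in replicate 2. Camta1 had 0.640 in replicate 1, Auts2 0.899 in replicate 2, and Asic2 0.612 and 0.904. Camta1 was above Asic2 in both libraries, and Auts2 was above both in replicate 1 and below both in replicate 2. Zfhx3 was lowest in both libraries, at 0.557 and 0.576.

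The 2484 protein-coding genes of 100 kb or more give the background for these densities. Their median was 0.323 distal peaks per 10 kb in replicate 1 and 0.602 in replicate 2, and the middle 50% ran from 0.181 to 0.508 and from 0.413 to 0.797. Gse1 ranked 14 and 12 among them by density. Auts2 stood at the 85.8 and 84.3 percentile, Camta1 at 85.5 and 90.7, and Asic2 at 83.4 and 84.6. Zfhx3 stood at the 79.5 percentile in replicate 1 and at the 46.3 percentile in replicate 2, where its density was below the median. Among the 99 genes of 800 kb or more, whose medians were 0.229 and 0.508, Auts2 ranked 2 and 5, Camta1 3 and 1, Asic2 5 and 4, and Zfhx3 7 and 40.

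**Figure D1:**
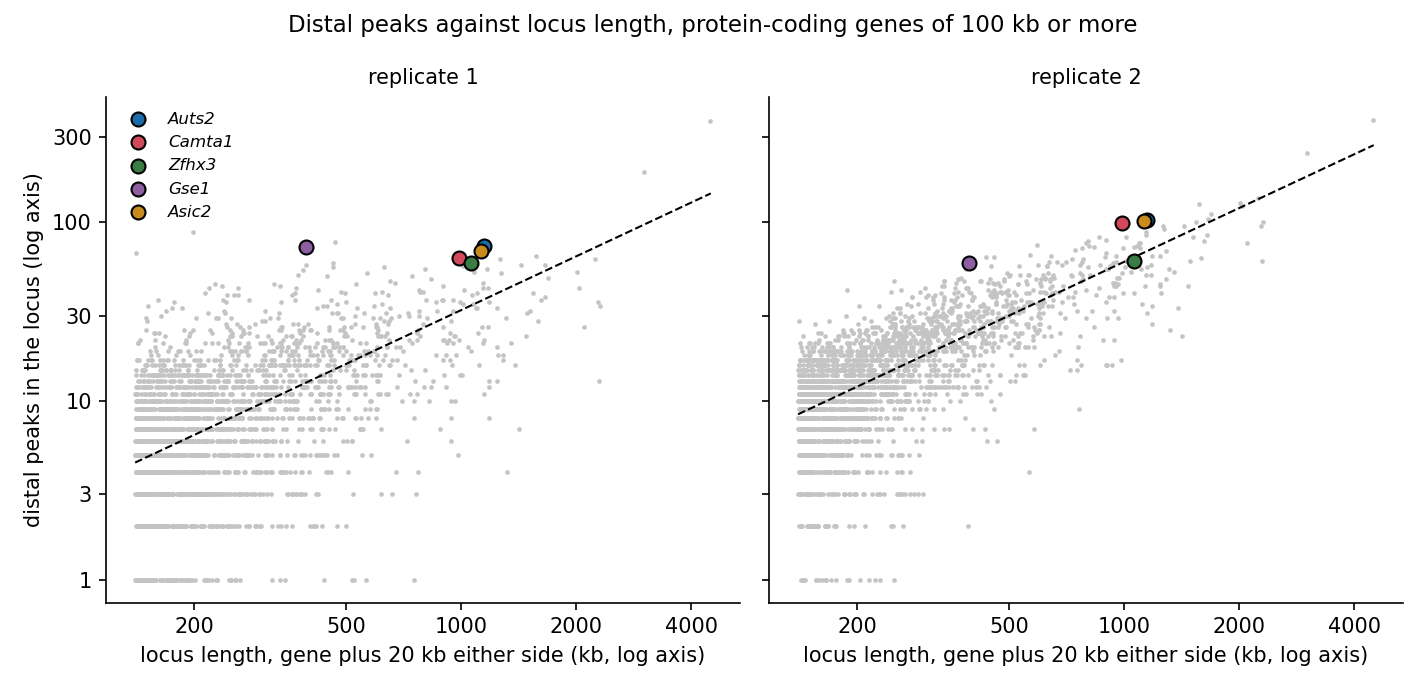
Each grey point is a protein-coding gene of 100 kb or more with at least 1 distal peak; the x axis is locus length in kb and the y axis the number of distal peaks, both logarithmic, with 1 panel per library. The dashed line is the median density (0.323 and 0.602 per 10 kb); of the 5 genes Gse1 lies farthest above it in both panels, Zfhx3 lies just below it in replicate 2, and the points of Auts2 and Asic2 overlap.

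By the count itself, the measure that chose the members, Auts2 ranked 5 and 10 among all protein-coding genes, Camta1 10 and 14, Asic2 7 and 11, Zfhx3 14 and 55, and Gse1 6 and 65. Genes outside the group with high counts in both libraries were Gm20388 (372 and 377) and Fgfr2 (192 and 245), whose gene models span several other genes. The neuronal splicing factor gene Rbfox1 had 65 and 127, the adhesion gene Lsamp 62 and 137, and Gm37240 58 and 95. Rbfox1, Lsamp and Gm37240, which span 1526, 2197 and 1391 kb, are longer than any member. Their densities were 0.415, 0.277 and 0.405 per 10 kb in replicate 1, below every member, and 0.811, 0.612 and 0.664 in replicate 2, above Zfhx3 and below the other members. In replicate 2 the counts of Rbfox1 and Lsamp were above those of all 5 members. By density the genes of 100 kb or more that ranked high in both libraries beside Gse1 included Nfix, a nuclear factor I gene, with 4.77 and 1.99 per 10 kb. The adhesion gene Igsf21 had 1.50 and 1.62, and the dynein gene Dnah2 1.90 and 1.66. The coronin gene Coro2b (1.52 and 1.52) and the myosin gene Myo18a (1.47 and 1.40) were also among them.

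The alternative promoters of the members differed in whether they were open, and several genes opened at internal starts. Starts within 500 bp of each other were joined, which gave 32 promoters. Of these, 17 were open in both libraries, 1 in replicate 1 alone, 5 in replicate 2 alone and 9 in neither, beside 33.4% open in both among all promoters of protein-coding genes. Each of the 5 genes had at least 1 promoter open in both libraries, which 63.2% of all protein-coding genes had. Since the number of annotated starts differs between genes, these shares are not like for like.

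Camta1 had the strongest promoter of the group. At its annotated 5′ end, where 6 starts lie close together, the signal of the strongest peak reached 22.1 and 9.51, the 99.9 percentile in both. Internal promoters at 722, 732 and 753 kb were also open in both libraries, with signals of 6.28 and 2.24, 4.79 and 2.01, and 7.43 and 2.72. The first of these lies 2037 bp from the strong site with the CTCF word printed above. The promoter at 782 kb was closed in both. Promoters of other genes in the locus reached the same range: Vamp3, a vesicle fusion gene, had 19.2 and 6.44, Park7 18.4 and 6.29, the clock gene Per3 15.9 and 5.49, and Tnfrsf9 12.3 and 4.36. Uts2 and Gm13090 had no promoter peak in either library.

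Auts2 had 13 promoters, the most of the group, and 5 of them were open in both libraries. The pair at the 5′ end, 0.546 kb apart, shared the same strongest peak, with signals of 7.51 and 2.76. A start at 927 kb had 2.24 and 1.17, and a pair at 1005 kb, which also share a peak, had 3.81 and 1.08. These internal starts lie towards the 3′ end of the gene, where shorter Auts2 transcripts begin. Starts at 515 and 1009 kb had a peak in replicate 2 alone, with signals of 0.877 and 1.79. The other 6 promoters, at 94.0 and 493 kb and between 1066 and 1087 kb, were closed in both.

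Zfhx3 was closed at its annotated 5′ end in both libraries and open at internal starts. The promoter at 772 kb, which serves a protein-coding transcript, reached a signal of 1.46 and then 0.542 in replicates 1 and 2, the 70.3 and 56.1 percentile. A weaker promoter at 670 kb had 0.441 and 0.485. Starts at 51.9 and 760 kb had a peak in replicate 2 alone, with signals of 0.271 and 0.710. In both libraries the highest promoter signal of Zfhx3, 1.46 and 0.710, was below the highest of each of the other 4 genes.

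Asic2 has 2 annotated starts, and both were open in both libraries, the internal one more strongly. The start at the 5′ end had signals of 1.06 and 0.635, and the start at 815 kb had 4.12 and 1.40. The promoters begin different transcripts of the channel subunit. In each library the internal signal was above that at the 5′ end. The neighbour 5530401A14Rik had a promoter signal of 0.980 and 1.23.

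Gse1 was open at 4 promoters in both libraries. The 5′ end, which it shares within the window with a start of A330074K22Rik, had signals of 2.45 and 1.17. Starts at 260, 307 and 309 kb had 3.67 and 1.69, 4.21 and 1.25, and 2.26 and 1.19. The peak at 309 kb also lies at a start of 1700016A09Rik. A start at 334 kb was open in replicate 2 alone (0.750), and one at 343 kb in replicate 1 alone (0.775). Gins2, a DNA replication gene within the body of Gse1, had 14.6 and 8.31, more than any promoter of Gse1.

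Promoters open in both libraries were rich in G and C. Within 250 bp of the starts, the 17 had a GC content of 52.4 to 75.8% (median 66.9%), the 6 open in a single library 34.0 to 59.4% (median 42%), and the 9 closed ones 43.5 to 51.6% (median 46.4%). The median ratio of observed to expected CpG was 0.759, 0.419 and 0.213 in the same order. A protein-coding transcript began at 13 of the 17, at 1 of the 6 and at 6 of the 9. No promoter that was closed in both libraries had a GC content above that of the lowest promoter open in both.

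**Figure D2:**
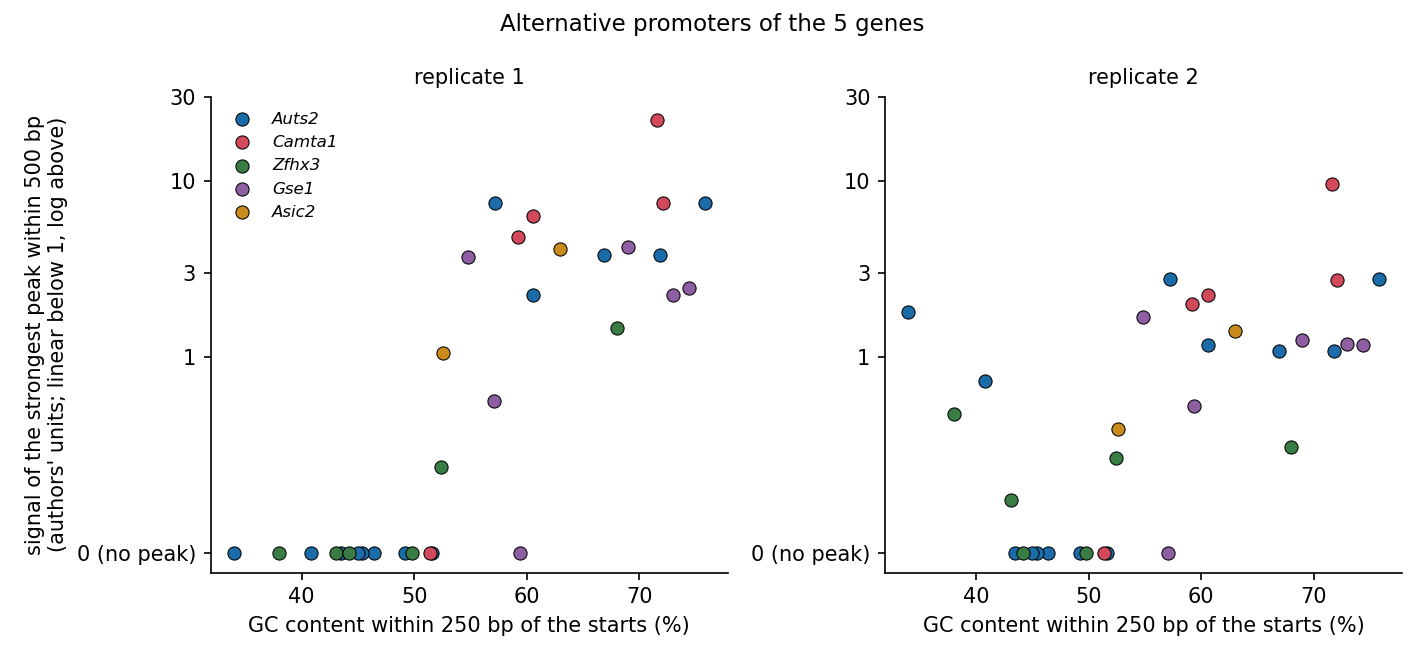
Each point is 1 of the 32 promoters; the x axis is the GC content within 250 bp of its starts in percent and the y axis the signal of its strongest peak within 500 bp in the authors' units (linear below 1, logarithmic above; 0 means no peak), with 1 panel per library. Apart from 1 Gse1 promoter in each panel, points without a peak lie below 52.4% GC. The Camta1 5′ end is the highest (22.1 and 9.51), and in replicate 2 peaks also appear at promoters with GC contents from 34.0 to 43.1%.

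The windows from 250 bases before to 50 after a start are printed for the open internal start of Zfhx3 and for both starts of Asic2, which contrast its annotated 5′ end with its internal start. The 5′ end of Asic2 was added to the selection after its values had been seen. Capitals mark each CG dinucleotide, and each sequence is given on the strand of its gene, 5′ to 3′, from mm10. The positions are chr8:108714394-108714693 (plus) for the start of Zfhx3 at 772 kb, chr11:81968408-81968707 (minus) for the 5′ end of Asic2 and chr11:81153272-81153571 (minus) for its start at 815 kb.
Zfhx3, internal start: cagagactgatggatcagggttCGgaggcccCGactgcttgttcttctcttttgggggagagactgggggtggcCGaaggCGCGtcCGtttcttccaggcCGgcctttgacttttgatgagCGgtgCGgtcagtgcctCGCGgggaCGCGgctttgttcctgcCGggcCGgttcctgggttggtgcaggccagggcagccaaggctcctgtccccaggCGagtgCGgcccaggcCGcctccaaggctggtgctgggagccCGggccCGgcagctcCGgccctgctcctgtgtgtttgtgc
Asic2, 5′ end: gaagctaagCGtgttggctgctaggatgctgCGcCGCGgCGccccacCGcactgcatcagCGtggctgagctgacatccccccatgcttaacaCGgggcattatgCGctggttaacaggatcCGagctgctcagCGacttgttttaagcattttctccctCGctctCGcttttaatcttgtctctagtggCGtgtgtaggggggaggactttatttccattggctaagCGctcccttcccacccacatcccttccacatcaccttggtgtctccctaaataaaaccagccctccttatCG
Asic2, internal start: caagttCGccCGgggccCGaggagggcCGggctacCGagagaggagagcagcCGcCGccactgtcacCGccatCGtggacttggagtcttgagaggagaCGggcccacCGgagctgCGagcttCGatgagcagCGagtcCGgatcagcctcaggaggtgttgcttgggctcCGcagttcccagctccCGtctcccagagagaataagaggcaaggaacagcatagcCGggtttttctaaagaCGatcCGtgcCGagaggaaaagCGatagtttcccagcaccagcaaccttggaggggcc

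The open internal start of Zfhx3 holds 21 CG in its 300 bases. At Asic2 the weaker 5′ end holds 16 and the stronger internal start 22. Over the windows of 93291 annotated starts the median was 9 CG, with the middle 50% between 3 and 23. The windows at the 5′ ends of Auts2 and Camta1 held 37 and 17, and that of the Gse1 start at 307 kb 23.

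Along the genes, distal sites were spread over the whole length and gathered in places. Joining the peaks of both libraries gave 124 distal sites at Auts2, 113 at Camta1, 82 at Zfhx3, 89 at Gse1 and 119 at Asic2. The median gap between neighbouring sites was 5.78, 6.07, 6.52, 2.71 and 6.38 kb in the same order. The widest gap without a site in either library was in Zfhx3, 92.9 kb long (chr8:108125681-108218607), from 183 to 276 kb after the 5′ end and between the promoters near the 5′ end and the internal ones. The widest gaps of the other genes were 47.1 kb at Auts2, 40.2 kb at Camta1, 25.7 kb at Gse1 and 55.4 kb at Asic2.

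Cutting each gene body into 5 equal segments showed where the sites lay. In Auts2, whose segments are 221 kb long, replicate 1 had 9, 10, 10, 20 and 20 distal peaks from the 5′ to the 3′ end, and replicate 2 had 16, 21, 19, 28 and 17. The segment next to the 3′ one held the most in replicate 2 and as many as the 3′ one in replicate 1. In Camta1 (189 kb) the counts were 7, 12, 11, 20 and 12 in replicate 1 and 14, 19, 19, 25 and 19 in replicate 2, so the segment that holds the internal promoters from 722 to 753 kb was highest in both. Zfhx3 (204 kb) had 12, 3, 13, 14 and 17 in replicate 1 and 14, 9, 13, 11 and 12 in replicate 2, with the second segment, which holds most of the wide gap, lowest in both. Gse1 (70.6 kb) had 19, 9, 11, 10 and 17 in replicate 1 and 10, 10, 12, 9 and 11 in replicate 2. Asic2 (218 kb) had 10, 13, 11, 16 and 13 and then 18, 18, 20, 16 and 25, with no segment highest in both.

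The densest 50 kb was the same place in both libraries at Camta1. There, 10 peaks in replicate 1 and 11 in replicate 2 lay between 675 and 723 kb, around the internal promoter at 722 kb and the strong CTCF-word site. At Auts2 the densest 50 kb of replicate 1 held 15 peaks at the 3′ end (1073 to 1116 kb), where replicate 2 had 4. Of the 15, 4 overlapped a peak of replicate 2, 6 lay in exons, and their median signal was 0.501. The densest 50 kb of replicate 2 at Auts2 held 11 peaks at 825 to 869 kb, where replicate 1 had 9. At Gse1 the densest stretch of replicate 1, 19 peaks from 28.7 to 72.6 kb, held 10 in replicate 2. The densest stretch of replicate 2 there, 12 peaks from 53.2 to 101 kb, also held 19 in replicate 1, so it was among the densest in both libraries. At Zfhx3 the stretches were 943 to 992 kb in replicate 1 (9 peaks, 6 in replicate 2) and 807 to 856 kb in replicate 2 (7 peaks, 6 in replicate 1), both past the open promoter at 772 kb. Of the 9 and 7 peaks, 5 and 6 overlapped a peak of the other library. The lowest signal of the 9 was 0.076, the 0.038 percentile of replicate 1. At Asic2 the stretches were 850 to 889 kb (8 peaks, 6 in replicate 2) and 445 to 492 kb (11 peaks, 4 in replicate 1). Of the 8 and 11 peaks, 3 and 3 overlapped a peak of the other library, and the lowest signal of the 8 was 0.0988.

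**Figure D3:**
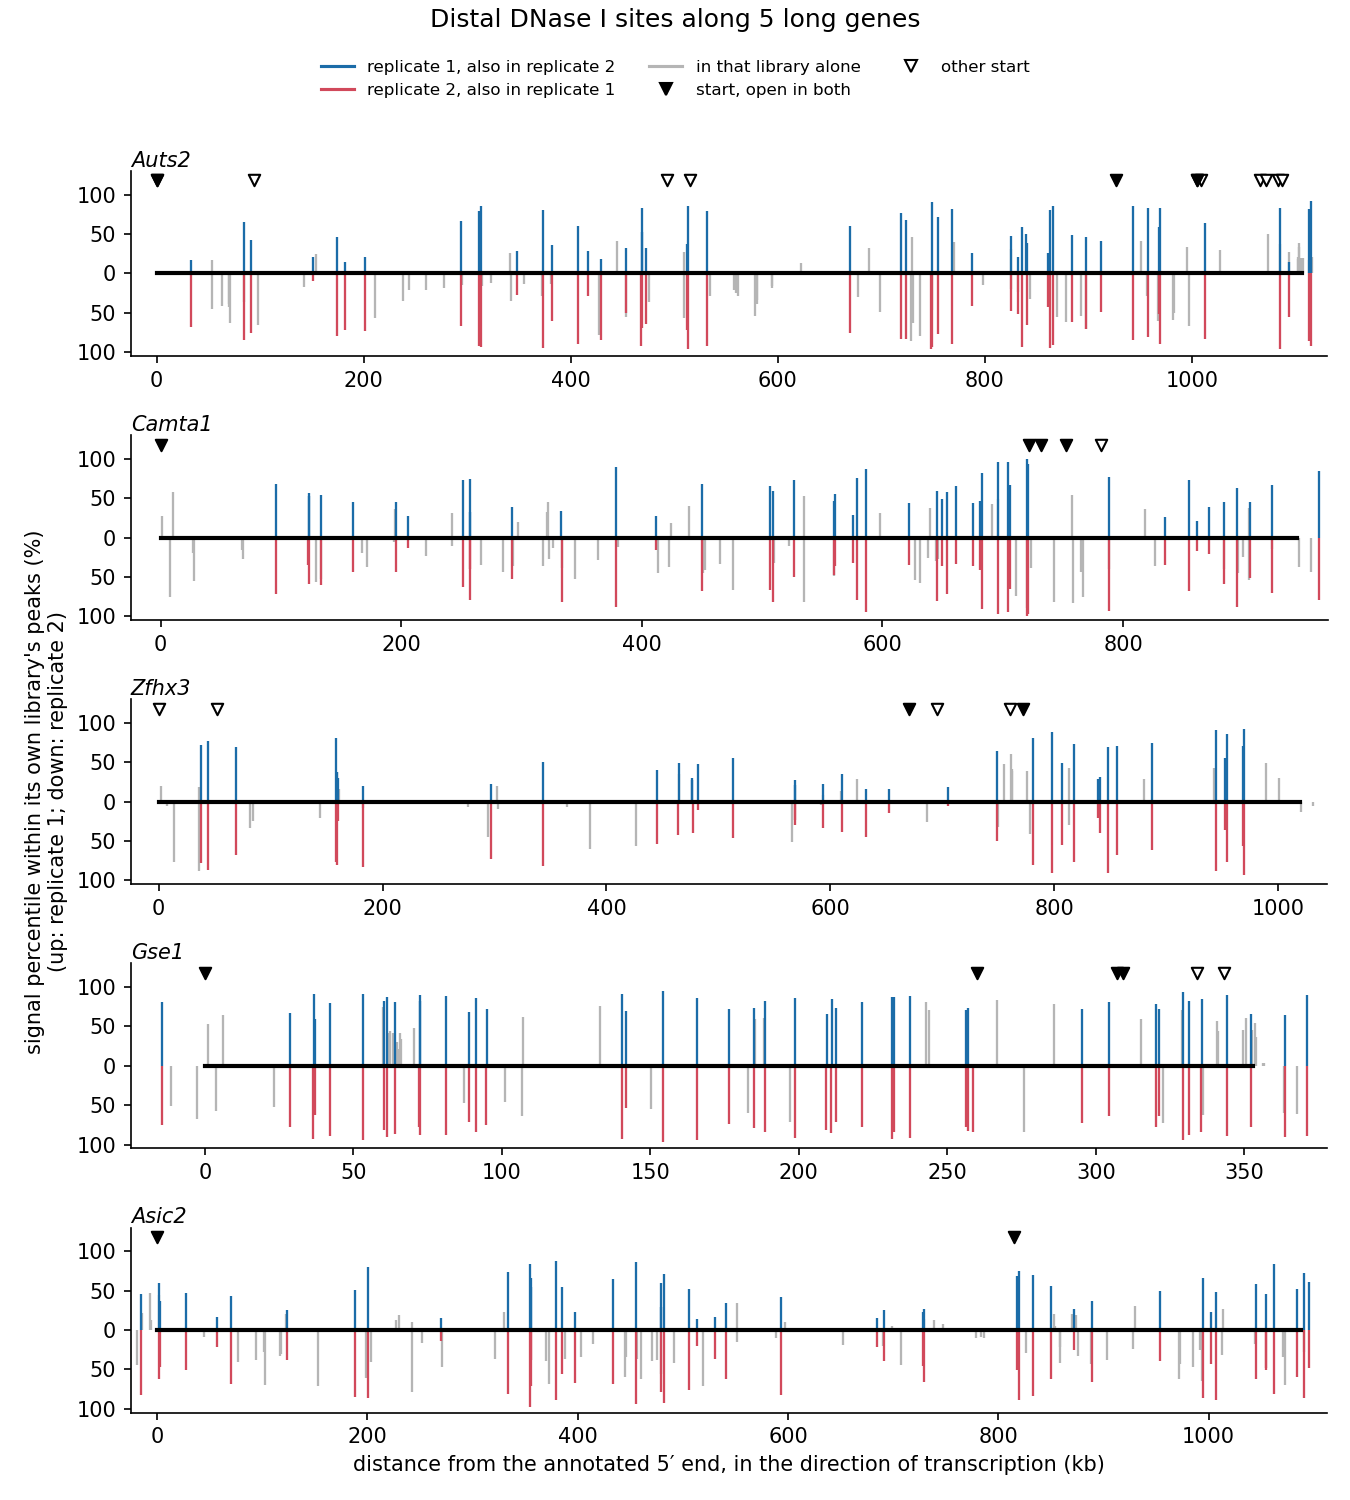
Each vertical line is a distal peak; the x axis is the distance in kb from the annotated 5′ end in the direction of transcription and the y axis the percentile of the peak's signal among all peaks of its library, upward for replicate 1 and downward for replicate 2. Coloured lines overlap a peak of the other library, grey lines do not, and triangles mark promoters (filled where open in both). Tall lines are mostly coloured, Gse1 has tall lines along its whole length, and Zfhx3 has the empty stretch from 183 to 276 kb.

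Peaks found in both libraries made up 67.6% of the distal peaks of replicate 1 at Auts2, 73.0% at Camta1, 62.7% at Zfhx3, 58.9% at Gse1 and 68.1% at Asic2. Together 223 of 338 (66.0%) were shared, beside 68.9% of all distal peaks of that library. In replicate 2 the shares were 48.5%, 46.5%, 59.0%, 74.6% and 46.1% in the same order, and together 223 of 424 (52.6%), beside 42.7%. The mean of the shares in both libraries was 59.3% ± 9.46 (SD, n = 2). Gse1 had the lowest share in replicate 1 and the highest in replicate 2. Joined over both libraries, 49 of the 124 sites at Auts2, 47 of 113 at Camta1, 36 of 82 at Zfhx3, 43 of 89 at Gse1 and 45 of 119 at Asic2 were found in both. The share over all joined distal sites of the genome was not computed, so these counts cannot be called high or low.

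Shared sites were the stronger ones in every gene and in both libraries. At Auts2 the median signal of shared and unshared distal peaks was 1.03 and 0.517 in replicate 1 and 0.963 and 0.381 in replicate 2. At Gse1 it was 2.46 and 0.900 in replicate 1 and 1.23 and 0.594 in replicate 2, the highest of the group for shared peaks. At Asic2 it was 0.843 and 0.407, then 0.629 and 0.387. Camta1 (1.02 and 0.623, then 0.617 and 0.398) and Zfhx3 (0.813 and 0.528, then 0.542 and 0.306) had the same order. Over all distal peaks the medians were 0.881 and 0.410 in replicate 1 and 0.710 and 0.340 in replicate 2.

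The strongest distal peak found in a single library lay at very different distances from the nearest peak of the other. In replicate 1 the distance was 11930 bp at Auts2 (signal 0.828, 1073 kb), 2600 bp at Camta1 (1.00, 10.5 kb), 240 bp at Zfhx3 (1.09, 762 kb), 6480 bp at Gse1 (2.69, 267 kb) and 6115 bp at Asic2 (0.767, upstream of the gene). In replicate 2 it was 1240 bp at Auts2 (1.36, 728 kb), 80 bp at Camta1 (1.68, 720 kb), 40 bp at Zfhx3 (1.58, 35.8 kb), 9100 bp at Gse1 (1.22, 276 kb) and 276 bp at Asic2 (1.02, 243 kb). At Zfhx3 both peaks lay beside a peak of the other library, and at Gse1 neither did.

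In strength, the distal sites of Gse1 ranked above those of the other members. Their median signals were 1.59 and 0.975 in replicates 1 and 2, the 72.6 and 78.2 percentile of all peaks of each library. At Camta1 the medians were 0.813 and 0.433 (percentiles 49.4 and 44), at Auts2 0.672 and 0.542 (40.8 and 56.1), at Zfhx3 0.646 and 0.410 (38.9 and 40.9), and at Asic2 0.623 and 0.433 (37.3 and 44). Over all distal peaks the median percentile was 41.1 and 44.8. Zfhx3 and Asic2 thus lay below that of all distal peaks in both libraries. The strongest decile of all peaks contained 2 and 13 distal peaks of Auts2, 4 and 7 of Camta1, 2 and 3 of Zfhx3, 6 and 11 of Gse1, and 0 and 3 of Asic2. Together this was 4.14% of the members' distal peaks in replicate 1, beside 3.15% of all distal peaks, and 8.73% in replicate 2, beside 5.04%.

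Further strong sites lay inside the genes. In Camta1 a site at 696 kb had signals of 9.18 and 4.30 and a site at 705 kb 9.16 and 2.79. These sites lie close to the strongest one at 720 kb. In Auts2 a site at 749 kb had 4.68 and 3.11 and held 11 footprints in each library, and a site at 514 kb had 3.20 and 3.35. The site at 514 kb lies 1095 bp from the Auts2 start at 515 kb, just past the 1000 bp limit for a distal peak. In Zfhx3 sites at 944 and 798 kb had 4.89 and 1.55 and 3.78 and 1.75, the latter over an annotated exon. Both Zfhx3 and Gm38042 overlap the site at 798 kb, and which of them the exon belongs to was not determined. In Gse1 sites at 329 and 141 kb had 6.83 and 2.62 and 5.39 and 2.20. In Asic2 a site at 355 kb had 2.83 in replicate 1 and 3.96 in replicate 2, its highest in that library, and a site at 456 kb 3.19 and 2.37.

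Footprints lay in most distal sites of the members. In replicate 1, 276 of the 338 distal peaks (81.7%) held at least 1 footprint, beside 75.7% of all distal peaks, and in replicate 2, 353 of 424 (83.3%), beside 78.9%. The members averaged 2.05 ± 0.0649 footprints per distal peak (SD, n = 2), 2.09 in replicate 1 and 2.00 in replicate 2, beside 1.90 and 1.81 over all distal peaks. Gse1 was highest, with 2.34 and 2.76 per peak and a footprint in 91.8% and 98.3% of its peaks. Auts2 had 2.20 and 2.20, Camta1 2.19 and 1.68, Asic2 1.93 and 1.85, and Zfhx3, the lowest in replicate 1 at 1.73, had 1.69 in replicate 2. Over the 5 genes, shared peaks, which were the stronger ones, held 2.56 and 2.68 footprints and unshared peaks 1.18 and 1.25.

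Footprints of distal peaks that themselves also lay in a peak of the other library were often found again there. Other footprints of shared peaks are left out of these shares. At Camta1, 64.4% of such footprints of replicate 1 overlapped a footprint of replicate 2, and 77.4% of those of replicate 2 the reverse. At Auts2 the shares were 61.2% and 60.8%, at Asic2 60% and 55.7%, at Gse1 59.5% and 56.3%, and at Zfhx3 47.8% and 56.7%. Over all distal peaks they were 52.5% and 54.2%. The share at Zfhx3 in replicate 1 was the only one below that of all distal peaks.

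The words of several factors were searched on both strands in the 200 bp around the middle of each distal peak. The E-box CAGATGG, a word of the kind bound by NeuroD factors, lay in 16.0% of the members' distal peaks in replicate 1 and 17.2% in replicate 2, beside 12.5% and 16.1% of all distal peaks. Auts2 held the most, 18 and 22 peaks. Gse1 held 14 and 9, Camta1 6 and 17, Asic2 9 and 16, and Zfhx3 7 and 9. The other E-box, CAGCTG, lay in 22.2% and 22.9%, beside 22.7% and 18.3%, and the homeobox core TAATTA in 5.92% and 7.31%, beside 3.23% and 6.91%. The CTCF word lay in 11.5% and 9.43%, beside 14.3% and 11%. Camta1 held it in 11 and 15 peaks and Auts2 in 3 and 3, although the counts of distal peaks at Auts2 were the larger.

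The remaining words gave these shares. The CTCF core CAGGGGGC lay in 4.14% and 2.83% of the members' distal peaks, beside 3.27% and 1.93% of all distal peaks. It was added to the search after the Auts2 site had been seen. The AP-1 word TGANTCA lay in 6.51% and 10.1% of the members' distal peaks, beside 6.92% and 8.83%, and the SOX word ACAANGG in 10.7% and 10.4%, beside 10.6% and 10.2%. The NFI word TTGGCNNNNNGCC lay in 3.25% and 2.83%, beside 3.08% and 2.43%, and the RFX word GTTGCCA in 2.96% and 3.77%, beside 4.61% and 5.20%. The SP and KLF word GGGGCGGGG lay in 1.78% and 1.42% (6 peaks in each library), beside 1.29% and 0.666%. The CRE word TGACGTCA, the EGR word GCGTGGGCG and the MEF2 word lay in 0, 0 and 0 peaks of replicate 1 and in 1, 0 and 2 of replicate 2. Over all distal peaks they were also rare, at 0.296%, 0.16% and 0.315% in replicate 1 and 0.271%, 0.0824% and 0.732% in replicate 2. Counts this low at the members cannot be told apart from those shares. Words can overlap each other. The GC content was 55.4% and 50.9% in the members' distal peaks and 53.8% and 47.5% in all distal peaks.

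Across long genes the difference between the libraries moved with GC content, and the members lay at several places in that relation. Across the 990 genes of 100 kb or more with at least 10 distal peaks in both libraries, the log2 ratio of the counts of replicate 2 over replicate 1 fell with the GC content of the locus (Pearson's r = -0.58, Spearman's rho = -0.59 across genes, which share both libraries and are not independent). The median ratio was 1.54. It was 2.33 for the 49 loci under 38% GC and 1.11 for the 164 loci of 48% or more. Gse1, the richest in GC of the members at 54.2%, had a ratio of 0.808, and 29 of those 164 loci were at or below it. Camta1, at 48.9%, had 1.57, with 152 of the 164 at or below it. Its GC content is near the low end of this open range, so that rank also reflects loci richer in GC. The median ratio of the 153 loci between 46 and 48% was 1.33. Zfhx3, at 44.9%, had 1.03, a low ratio for its GC content, with 18 of the 202 loci between 44 and 46% at or below it. Auts2 (43.6%) had 1.39 and Asic2 (45.3%) 1.48, beside medians of 1.66 and 1.53 in their ranges of GC content. The part of depth or of base composition in these differences was not tested.

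**Figure D4:**
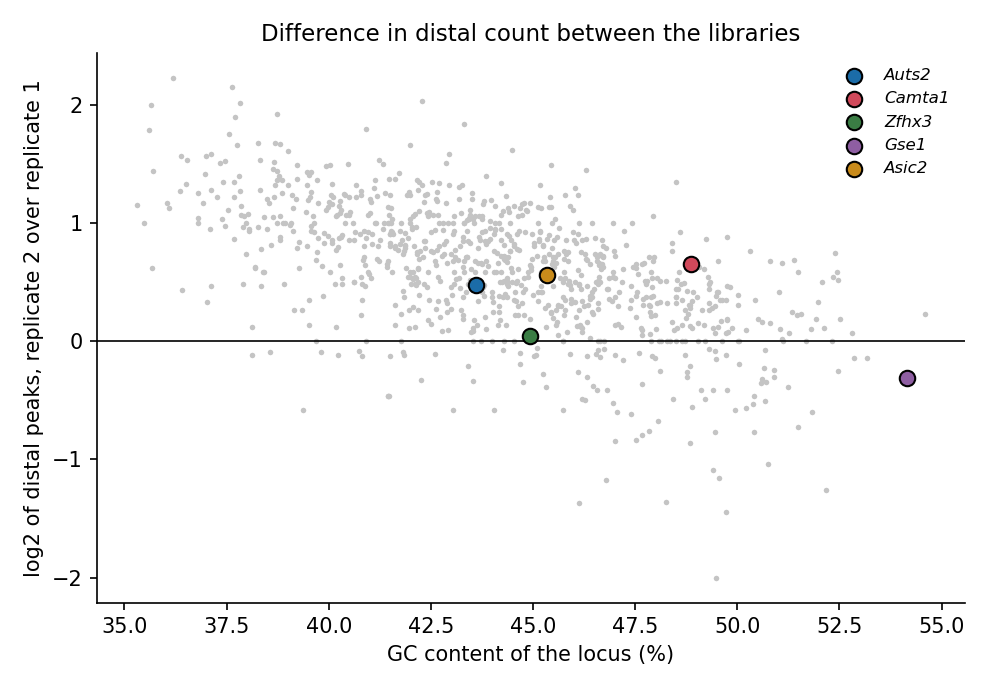
Each grey point is 1 of 990 protein-coding genes of 100 kb or more with at least 10 distal peaks in both libraries; the x axis is the GC content of the locus in percent and the y axis the log2 ratio of distal counts, replicate 2 over replicate 1. The cloud falls from left to right, Gse1 lies below 0 at 54.2% GC, Camta1 lies in the upper part of the cloud at its GC content and Zfhx3 in the lower part.

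Peaks found in a single library showed the same difference. At the members, unshared peaks of replicate 1 had a GC content of 57.3% and those of replicate 2 of 47.8%, with shared peaks at 54.5% and 53.7%. Over all distal peaks the split was alike, with 55.6% and 44.5% in unshared and 53.0% and 51.5% in shared peaks. At shared sites the signal of replicate 1 was a median of 2.04-fold that of replicate 2 at Gse1, 1.77-fold at Camta1, 1.72-fold at Zfhx3, 1.21-fold at Asic2 and 1.13-fold at Auts2, beside 1.38-fold over all shared distal peaks. The signal was higher in replicate 1 at 42 of 43 shared peaks of Gse1 and at 29 of 50 of Auts2. Because the scaling of the signal is not stated, only the differences between genes in this ratio can be read.

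The separately deposited cut rate files, which list runs of bases whose false discovery rate was under 0.05, gave the same order at its ends. Such runs covered 8.14% and 5.39% of the Gse1 locus in replicates 1 and 2, 2.65% and 3.54% of Camta1, 2.38% and 3.38% of Auts2, 1.97% and 2.71% of Asic2, and 1.74% and 1.96% of Zfhx3, beside 1.42% and 1.91% of the genome. They come from the same reads as the peaks and held 97.2% to 98.5% of the peak bases of each member.

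Partner and family genes of the members are mostly short, with a median length of 36.5 kb. Their median density of distal peaks was 0.275 and 0.510 per 10 kb in replicates 1 and 2. The density over the whole genome, a mean and not a median over loci, was 0.291 and 0.472. Of 36 such genes, 33 had an open promoter in both libraries, beside 63.2% of all protein-coding genes. All 11 genes around Auts2 were open, among them Pcgf3 (promoter signal 12.7 and 5.28) and Pcgf5 (7.55 and 2.11), the subunits that define its PRC1 variant, the casein kinase subunit gene Csnk2b (13.2 and 7.39) and the histone acetyltransferase gene Ep300 (11.7 and 4.62). The paralog Fbrsl1 had 6.49 and 3.69. Median distal density in this set was 0.228 and 0.432 per 10 kb.

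Around Camta1 all 4 were open: Camta2 had a promoter signal of 7.11 and 1.81, and the calmodulin genes Calm2 and Calm3 had 14.8 and 5.67, and 23.2 and 9.05. Both Zfhx3 paralogs were open, Zfhx2 with 8.69 and 4.88 and Zfhx4 with 1.85 and 0.773. Zfhx2, a far shorter gene of 32.1 kb, had 26 and 10 distal peaks (3.61 and 1.39 per 10 kb). All 12 complex partners of Gse1 were open, among them the demethylase gene Kdm1a (10.6 and 4.54), Hdac1 (12.6 and 4.82) and Rcor1 (17.1 and 7.70). Rcor1 had 10 and 15 distal peaks and Rcor2 10 and 11.

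Of the channel family of Asic2, 4 of 7 were open in both libraries, a share close to the 63.2% of all protein-coding genes. Asic1 (3.65 and 1.21) and Asic3 (1.46 and 1.35) were open, as were the epithelial channel genes Scnn1b (0.866 and 0.323) and Scnn1g (5.39 and 2.17). Asic4, Asic5 and Scnn1a had no promoter peak in either library. Asic4 still had 10 and 6 distal peaks in its locus.

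Open promoters were also counted at markers of several cell types. Promoters were open in both libraries at 9 of 10 markers of excitatory hippocampal neurons, 6 of 6 of astrocytes, 4 of 6 of the oligodendrocyte lineage, 3 of 5 of microglia, 2 of 6 of interneurons, 1 of 5 of vessels and 0 of 5 of liver, beside 63.2% of all protein-coding genes. Only the excitatory and astrocyte lists were clearly above that share. The oligodendrocyte and microglia lists were close to it, and the interneuron, vessel and liver lists were below it. The libraries differed most at interneuron markers, with 5 of 6 open in replicate 1 and 2 of 6 in replicate 2, and 1 of 5 liver markers was open in replicate 1. Markers of both neurons and glia were open, so no site at the 5 genes can be assigned to a cell type. The libraries held 115699 and 167829 peaks with median signals of 0.821 and 0.485. The deposited values do not give the depth in reads.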

How the data were processed

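DNase-seq peaks, footprints and cut rates of 2 hippocampus libraries were used. The authors made all files of a library from its filtered mm10 alignment, without pooling, per the deposited file listings. The names of the aligner and callers are not stated in the sources used here. Each library has 2 deposited peak lists, and the longer (115699 and 167829 peaks) was used. The authors' signal value per peak is never negative and its scaling is not stated, so peaks were ranked inside each library, ratios between libraries were compared only between genes, and the depth is unknown. The deposited footprints (316302 and 366915) all carry a score of 0.01 and were used as intervals. The deposited q-value (FDR) files list only runs under 0.05.

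Gene models were GENCODE M21 on GRCm38.p6, and coordinates are 1-based. An overlap of 1 bp or more counted as shared. Sequences came from the RefSeq copy of the same assembly. Interval code (Python 3.11.15, pandas 2.3.3, pysam 0.24.0) was tested on simulated intervals. The genes and lists were chosen with earlier results of these data known. Genes outside the group were named by a rule: the 6 with the highest smaller count and the 6 with the highest smaller density. Some of these, some listed genes and some sequences are not reported here. With 1 group no test was made. Counts were recomputed under other lists, distances, windows and flanks, and with each library alone.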

Additional observations from a re-analysis of the deposited data

How the results depend on the processing

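The density of distal peaks at the 5 genes, 0.809 per 10 kb, fell to 0.448 with the stricter peak lists and to 0.668 when distal meant over 5 kb from a start. Footprints per distal peak, 2.05, rose to 2.66 with the stricter lists and to 2.21 with equal numbers of peaks. The share found in both libraries (52.3 to 65.0%, main 59.3%) and the promoters open in both (14 to 20 over settings with both libraries, main 17) moved by less than the spread or 1.5 times. With single libraries the density was 0.718 to 0.900, open promoters 18 to 22 and footprints 2.00 to 2.09. The share needs both libraries and has no such value. Over all values recomputed, 59 of 75 stayed within the spread between replicates (counts within 1.5 times) and 16 moved, 12 of them densities of single genes. The 59 include densities and footprints of single libraries, which lie within the spread of 2 libraries by construction. The spread also differed between genes, from an SD of 0.0134 at Zfhx3 to 0.259 at Camta1, so small changes count as moved at Zfhx3 alone. Gse1 was densest in both libraries under every setting run. Zfhx3 was lowest in both except with starts of protein-coding transcripts only and with the gene body alone, where it ranked 4 in replicate 1. With the stricter lists Gse1 had 1.15 and 0.942 per 10 kb, Camta1 0.325 and 0.538, Asic2 0.328 and 0.461, Auts2 0.314 and 0.532, and Zfhx3 0.293 and 0.359. With equal numbers of peaks Zfhx3 had 0.359 in replicate 2 and Gse1 still 1.50, because all its peaks there were above the removed signal. No paired analysis was possible because there is 1 group.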
